A study of Arabidopsis thaliana with 4 samples.

Results

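The 10 genes described here act on the differentiation of protophloem, the first sieve tissue of the root and of young organs, and were taken by locus identifier from a table of 32833 genes. They are OPS (AT3G09070), BRX (AT1G31880), CVP2 (AT1G05470), APL (AT1G79430), NAC045 (AT3G03200), NAC086 (AT5G17260), SMXL3 (AT3G52490), SMXL4 (AT4G29920), SMXL5 (AT5G57130) and PEAR1 (AT2G37590). RNA was sequenced from callus of Arabidopsis thaliana, in 2 libraries of Col-0 wild type and 2 of the wox5-1 wox7-1 double mutant. Hypocotyl pieces of about 1 cm, from seedlings kept 9 days in darkness on medium free of sucrose, were placed under continuous light on callus induction medium. In both genotypes that medium held 2% sucrose, 11 µM 2,4-D (a synthetic auxin) and 0.2 µM kinetin (a cytokinin), and culture ran for 5 to 6 days (the stage label names day 6). About 100 calli went into RNA extraction. The labels leave unsaid whether replicate libraries stem from separate cultures, and the p-values measure only the spread between these libraries, which may be technical. WOX5 and WOX7 encode related homeodomain transcription factors, the former a marker of the quiescent centre in roots.

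Protophloem cells arise from procambium and become sieve elements, which lose the nucleus, thicken the wall and stay connected through callose-lined sieve plates. Membrane-associated proteins (OPS, BRX and the phosphoinositide phosphatase CVP2) promote this step, and CLE peptides perceived by receptor kinases such as BAM3 hold it back. SMXL3, SMXL4 and SMXL5 are nuclear proteins needed for phloem formation, PEAR1 is a mobile Dof transcription factor induced by cytokinin, and APL is a MYB-type factor upstream of NAC045 and NAC086, which drive removal of the nucleus. Callus induced on such medium is known to follow a root-like programme, so these genes were read here in a tissue without an organised root tip. In RNA from whole callus, fewer cells of a type and less RNA per cell cannot be told apart.

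The libraries held 30041268 to 40008661 reads after removal of a constant of 10 from each deposited value, and 21244 to 21959 genes with a read. Levels per gene between libraries are given in CPM (read counts scaled to library size with TMM), and levels compared between genes in TPM (also divided by exon length). WOX5 stood at 144 and 146 CPM in wild type callus and at 0.255 and 0.846 CPM in mutant callus (edgeR quasi-likelihood test, log2 fold change -8.00, SE 0.42, adjusted p = 0.00986). Its log2 fold change was -7.41 without mutant replicate 1, -9.13 without mutant replicate 2 and -7.36 with the values as deposited. WOX7 stood at 14.8 and 13.1 CPM in wild type callus and at 22.4 and 22.2 CPM in mutant callus (log2 fold change 0.68, SE 0.11, adjusted p = 0.0335). A read count over the whole gene checks a label only where the lesion removes the transcript, which the labels do not state for wox7-1. Of 8 markers of callus and root founder cells, all had reads in every library, with a summed level of 940 and 856 TPM in wild type callus and 993 and 826 TPM in mutant callus. Across the genes tested, edgeR called 6.06% raised and 5.81% lowered in mutant callus at an adjusted p below 0.05. Of these markers, LBD17 and LBD18 rose, SCR and PLT2 fell, and the other 4 did not pass that threshold. Among these, LBD29 had 4 and 44 reads in wild type libraries and 6 and 130 in mutant libraries, replicate 2 the higher in both genotypes.

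OPS and SMXL3 are the members that changed, and the bases around each gene start (250 before, 50 after, from the TAIR10.1 RefSeq annotation, read 5' to 3' on the gene's strand) are shown because the mutated genes encode homeodomain factors. Capitals mark the homeodomain core TAAT or its complement ATTA, overlapping matches joined. The OPS stretch lies at chr3:2771326-2771625 and the SMXL3 stretch at chr3:19459154-19459453, both on the minus strand.
OPS: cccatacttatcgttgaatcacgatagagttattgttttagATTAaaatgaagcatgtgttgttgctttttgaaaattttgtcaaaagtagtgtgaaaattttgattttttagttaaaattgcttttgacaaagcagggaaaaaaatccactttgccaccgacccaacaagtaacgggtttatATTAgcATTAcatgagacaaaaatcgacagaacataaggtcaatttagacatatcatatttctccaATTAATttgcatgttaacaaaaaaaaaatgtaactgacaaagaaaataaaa
SMXL3: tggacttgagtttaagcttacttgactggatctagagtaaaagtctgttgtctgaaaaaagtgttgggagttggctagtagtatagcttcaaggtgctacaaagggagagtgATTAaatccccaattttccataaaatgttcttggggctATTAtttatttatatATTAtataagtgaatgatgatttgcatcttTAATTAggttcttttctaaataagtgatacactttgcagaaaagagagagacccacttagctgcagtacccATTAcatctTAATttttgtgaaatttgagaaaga
The OPS stretch held 5 such cores and the SMXL3 stretch 7, beside a median of 6 over 27443 promoters of the same length, of which 98.5% held at least 1. The Dof core AAAG, counted on both strands, was found 6 times for OPS and 8 times for SMXL3, beside a median of 5 and a share of 99.1%. The auxin response element TGTCTC was present once in the OPS stretch and absent from the SMXL3 stretch, and 14.2% of promoters held it on either strand. Among the 10 members, the stretches of OPS, BRX, APL, NAC086 and SMXL4 held that element. None of the 10 held the G-box CACGTG, which 7.68% of promoters held. A match describes the letters only and no binding was measured.

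Of the 10 members, 8 passed the filter on low counts, and of these OPS rose in mutant callus, SMXL3 fell and 6 did not pass the threshold (quasi-likelihood test of edgeR, p below 0.05 after Benjamini-Hochberg adjustment over 18716 genes). Over all genes tested, 11.9% were called, 6.06% raised (1135 genes) and 5.81% lowered (1088 genes), a split that was 2284 to 1132 when the deposited values were tested without the subtraction. The shares of 11.9%, 6.06% and 5.81% are the background for the edgeR calls in each list below. The libraries of the genotypes did not overlap for 4 of these 8 members, OPS higher and CVP2, APL and SMXL3 lower in mutant callus, beside 64.4% of all genes tested, 31.5% higher and 33% lower. The median log2 fold change of the 8 was -0.06, beside -0.001 for all genes tested, and the median size of the change 0.40 beside 0.26. With either wild type library left out, edgeR called 0 genes in the whole table (3428 without replicate 1 and 3346 without replicate 2 at an unadjusted p below 0.05), so every edgeR call given here is lost there. Without mutant replicate 1, edgeR also lost WOX7, BRXL1, BRXL2, BRXL3, BAM2, CALS7, T5L1, TMO6, XCP1 and PLT2. Without mutant replicate 2 it called 1198 genes and lost WOX7, BRXL2, BRXL3, BAM2, AT5G45780, CALS7, T5L1, TMO6, LOG3, D14 and PLT2. DESeq2, which called 3918 genes (20.2%) with all libraries, called 1320 without wild type replicate 1 and 1212 without wild type replicate 2, OPS and SMXL3 among them both times.

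**Figure D1:**
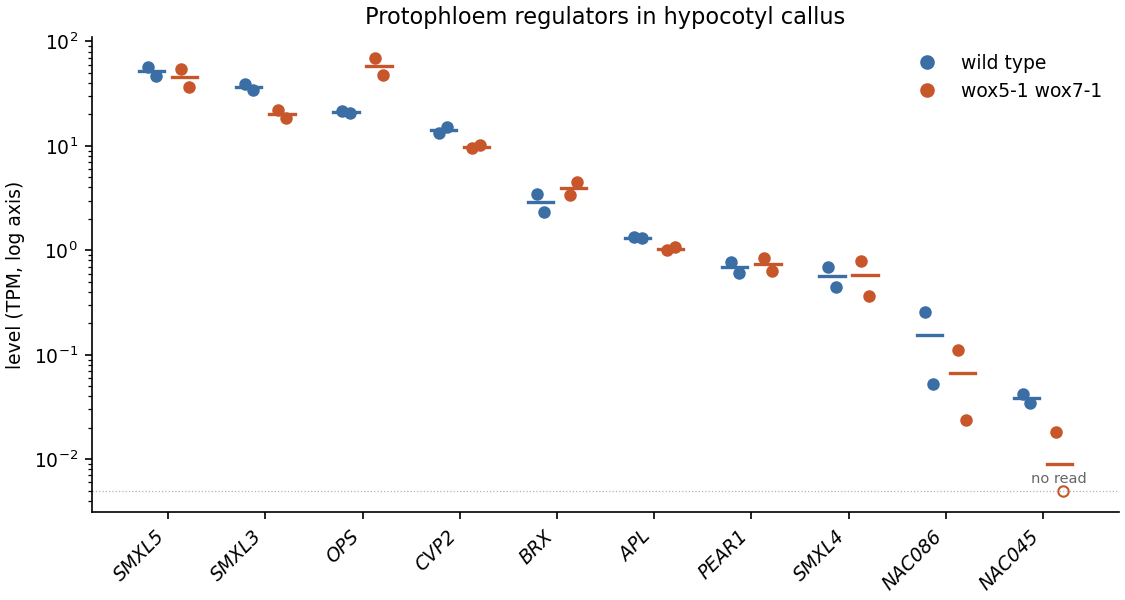
Level of each of the 10 regulators in TPM (log axis), with 1 point per library, wild type in blue and wox5-1 wox7-1 in orange, and a bar at each genotype's mean. OPS is the member whose mutant points (48.0 and 68.9 TPM) both lie above both wild type points (20.5 and 21.5 TPM), SMXL3 lies lower in mutant callus, and NAC045 and NAC086 lie below 0.3 TPM throughout, with an open point for the library without a NAC045 read.

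OPS encodes a membrane-associated protein that is polar in protophloem cells and counteracts the CLE peptide signal, and its level was higher in mutant callus. OPS stood at 33.0 and 32.0 CPM in wild type libraries and at 105.8 and 78.0 CPM in mutant libraries. Both mutant libraries lay above both wild type libraries, and the spread between the mutant libraries was the wider one. The mean went from 32.5 ± 0.676 CPM to 91.9 ± 19.7 CPM (SD, n = 2), or 2.83-fold higher, with log2 fold change 1.50 (SE 0.16, adjusted p = 0.0211). The call was lost without wild type replicate 1 (adjusted p = 0.140) and without wild type replicate 2 (adjusted p = 0.147), with log2 fold changes of 1.26 to 1.71 over the 4 single omissions. By DESeq2 it held in all 4. OPS is a gene of 1 exon at 2768641 to 2771375 of chromosome 3, minus strand, and no annotated gene overlaps its exon.

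AT2G38070, which carries the same RefSeq product description as OPS, stood at 17.5 and 16.1 CPM in wild type callus and at 11.2 and 8.54 CPM in mutant callus. Its mutant libraries were both below its wild type libraries, and its change did not pass the threshold (log2 fold change -0.76, SE 0.17, adjusted p = 0.0592). Of the summed TPM of both loci, OPS took 60.6% and 61.8% in wild type libraries and 88.5% and 88.1% in mutant libraries. These shares do not overlap, and an exact permutation test of 2 libraries against 2 cannot go below its value here, p = 0.333 (two-sided). With OPS higher and AT2G38070 lower in both mutant libraries, the shares had to separate and add no support of their own. Of the proteins listed as partners, BIN2, a GSK3-type kinase that OPS binds, stood at 129.5 and 135.5 CPM in wild type callus and 129.7 and 109.9 CPM in mutant callus. VCC, a vein-patterning protein, stood at 52.6 and 55.9 CPM in wild type callus and 46.9 and 34.9 CPM in mutant callus, and neither passed the threshold (adjusted p = 0.389 for BIN2 and 0.161 for VCC).

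Of 7 xylem vessel markers, whose values stand beside OPS here, 6 were tested and all 6 had positive log2 fold changes, of which XCP1, a protease of vessel cells, passed the threshold (0.658 and 0.277 CPM in wild type callus, 5.94 and 3.87 CPM in mutant callus, log2 fold change 3.40, adjusted p = 0.0335). Without wild type replicate 1 the XCP1 log2 fold change was 4.14, and over the 4 single omissions it ran from 2.89 to 4.14. The summed level of the list was 7.17 and 5.75 TPM in wild type callus and 20.8 and 12.6 TPM in mutant callus. CESA4 (1.78 and 1.77 TPM in wild type callus) and CESA7 (3.47 and 3.01 TPM) overlapped between genotypes. Their log2 fold changes were 0.21 and 0.07 (adjusted p = 0.646 and 0.814). XCP2, CESA8 and VND7 were higher in both mutant libraries and did not pass (adjusted p = 0.0637, 0.0672 and 0.0554). With XCP1, both mutant libraries lay above both wild type libraries for 4 of the 6 tested markers, beside 31.5% of all genes tested. The median log2 fold change of all genes tested was -0.001. The vessel master regulators VND6 and VND7 each had no read in 1 wild type library, 2 and 1 reads in the other, and 15 and 11 (VND6) and 30 and 15 (VND7) reads in mutant libraries. The part of these markers in the OPS value, or in the other values given here, was not tested.

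BRX encodes a polar membrane protein that regulates auxin flow in protophloem together with an associated kinase, and its level was low and did not pass the threshold. BRX stood at 3.19 and 2.18 CPM in wild type callus and at 3.14 and 4.41 CPM in mutant callus, overlapping between genotypes (log2 fold change 0.49, SE 0.33, adjusted p = 0.357). Its 4 paralogues BRXL1 to BRXL4 did not move in common. BRXL1 rose from 0.888 and 1.05 CPM to 4.87 and 3.10 CPM (log2 fold change 2.03, SE 0.35, adjusted p = 0.0391). BRXL2 fell from 61.3 and 60.3 CPM to 45.4 and 45.7 CPM (log2 fold change -0.42, SE 0.07, adjusted p = 0.0350), and BRXL3 from 21.8 and 23.1 CPM to 15.2 and 15.4 CPM (log2 fold change -0.56, SE 0.09, adjusted p = 0.0369). BRXL4 did not pass the threshold (56.1 and 52.3 CPM in wild type callus, 85.6 and 64.9 CPM in mutant callus, adjusted p = 0.111). With DESeq2, BRXL2 and BRXL3 were lost in each of the 4 single omissions of a library, and BRXL1 in 3.

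The summed level of the 5 BRX family genes was 139 and 132 TPM in wild type callus and 156 and 125 TPM in mutant callus, overlapping between genotypes. BRX itself took 2.48% and 1.76% of it in wild type callus and 2.18% and 3.58% in mutant callus. BRXL1 went from 0.535% and 0.657% to 2.61% and 1.95%, BRXL4 from 45.4% and 43.9% to 61.7% and 54.9%, and BRXL2 from 37.7% and 38.4% to 24.9% and 29.3%. Most of the family's TPM in both genotypes came from BRXL2, BRXL3 and BRXL4. AT2G44830, annotated as a protein kinase and listed as a partner of BRX, stood at 34.3 and 27.8 CPM in wild type callus and 36.3 and 31.5 CPM in mutant callus, and did not pass the threshold (adjusted p = 0.585).

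CVP2 encodes a phosphatase that removes a phosphate from the membrane lipid PI(4,5)P2, which the kinases PIP5K1 and PIP5K2 make. CVP2 stood at 26.6 and 31.0 CPM in wild type callus and at 19.1 and 21.5 CPM in mutant callus. Both mutant libraries lay below both wild type libraries, and the test did not pass the threshold (log2 fold change -0.50, SE 0.13, adjusted p = 0.0731), while DESeq2 with all libraries did (adjusted p = 0.0335). With DESeq2 that call was lost in each of the 4 single omissions of a library. CVL1, its close paralogue, stood at 19.99 and 18.1 CPM in wild type callus and 20.3 and 15.9 CPM in mutant callus (adjusted p = 0.776). Of the TPM of both phosphatases, CVP2 took 53.3% and 59.5% in wild type callus and 44.6% and 53.8% in mutant callus, overlapping shares.

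PIP5K1 rose from 103.6 and 97.9 CPM to 208.6 and 159.7 CPM (log2 fold change 0.87, SE 0.15, adjusted p = 0.0377), and was the only gene of the 5 partners of OPS, BRX and CVP2 past the threshold. Its DESeq2 call held in all 4 single omissions. PIP5K2 stood at 44.2 and 41.7 CPM in wild type callus and 43.0 and 38.9 CPM in mutant callus (adjusted p = 0.647). Within a library, the ratio of PIP5K1 to CVP2 on the TPM scale was 4.47 and 3.62 in wild type callus and 12.5 and 8.49 in mutant callus. The ratio was higher in both mutant libraries, with the exact permutation p at its smallest possible value, 0.333 (two-sided). With PIP5K1 higher and CVP2 lower in both mutant libraries, that outcome was fixed, so the ratio and its p add no separate support.

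**Figure D2:**
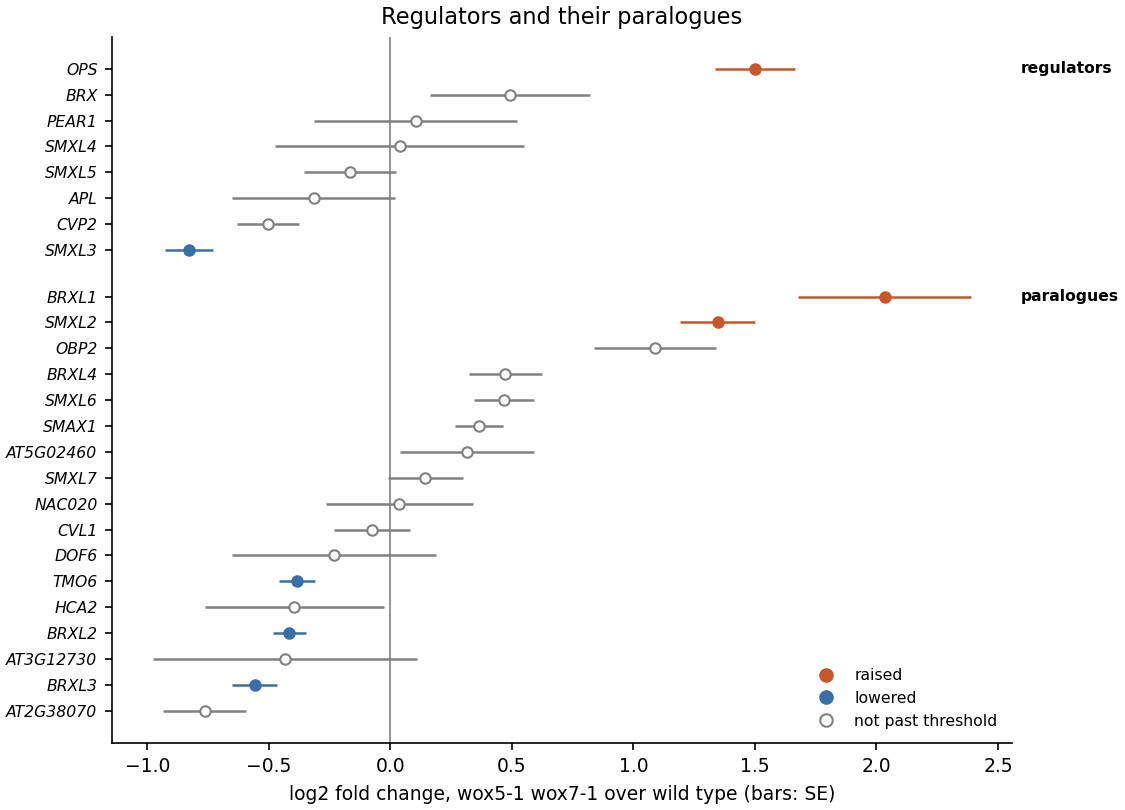
Log2 fold change (wox5-1 wox7-1 over wild type) of the 8 tested regulators and the 17 tested paralogues, with bars of 1 SE. Filled points passed the threshold, orange raised and blue lowered, and open points did not. OPS (1.50) and SMXL3 (-0.83) are the filled regulators, and BRXL1, SMXL2, TMO6, BRXL2 and BRXL3 are the filled paralogues.

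SMXL3, SMXL4 and SMXL5 act redundantly in phloem formation, outside of strigolactone and karrikin signalling, and SMXL3 was the one whose level fell. SMXL3 stood at 71.8 and 64.1 CPM in wild type callus and at 40.2 and 36.4 CPM in mutant callus. The mutant libraries lay below both wild type libraries, with a mean of 68.0 ± 5.47 CPM going to 38.3 ± 2.66 CPM (SD, n = 2). The log2 fold change was -0.83 (SE 0.10, adjusted p = 0.0229), 1.78-fold lower in mutant callus. The call was lost without wild type replicate 1 (adjusted p = 0.157) and without wild type replicate 2 (adjusted p = 0.133), with log2 fold changes of -0.91 to -0.74 over the 4 single omissions, and held in all 4 by DESeq2. SMXL3 lies at 19455505 to 19459203 of chromosome 3, minus strand, with 3 exon blocks.

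SMXL5 had the highest level of the 10 members in wild type callus on the TPM scale. SMXL5 stood at 116.9 and 97.4 CPM in wild type callus and at 111.0 and 80.1 CPM in mutant callus, overlapping between genotypes (log2 fold change -0.17, SE 0.19, adjusted p = 0.591). SMXL4 stood at 1.38 and 0.885 CPM in wild type callus and at 1.56 and 0.770 CPM in mutant callus (log2 fold change 0.04, SE 0.51, adjusted p = 0.968). In both genotypes its replicate 1 library was the higher one. The sign of both genes' fold change turned with single libraries: that of SMXL5 was positive, 0.06, without mutant replicate 2, and that of SMXL4 ran from -0.55 to 0.46 over the single omissions. For SMXL5 too, replicate 1 was the higher library in both genotypes. With the replicate number as a block, its log2 fold change was -0.18 (SE 0.08, edgeR adjusted p = 0.168), and the labels give that number no meaning.

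Of the summed TPM of SMXL3, SMXL4 and SMXL5, SMXL3 took 40.4% and 42.1% in wild type libraries and 28.4% and 33.4% in mutant libraries, and SMXL5 58.9% and 57.4% against 70.5% and 65.9%. SMXL4 stayed at 0.541% to 1.03%. The SMXL3 shares do not overlap (exact permutation test, two-sided p = 0.333, the smallest that 2 against 2 allows). The sum over the 3 genes was 96.7 and 81.6 TPM in wild type callus and 76.8 and 56.0 TPM in mutant callus.

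The 5 other family members, which are targets of the karrikin and strigolactone receptors, included 1 that passed the threshold. SMXL2, a target of KAI2 signalling, rose from 18.6 and 16.8 CPM to 50.5 and 39.4 CPM (log2 fold change 1.35, SE 0.15, adjusted p = 0.0220), and its DESeq2 call held in all 4 single omissions. SMAX1, the other KAI2 target, stood at 36.5 and 31.8 CPM in wild type callus and 44.2 and 43.7 CPM in mutant callus (adjusted p = 0.0832). The strigolactone targets SMXL6 (adjusted p = 0.0792) and SMXL7 (adjusted p = 0.558) did not pass, and SMXL8, with 4 to 13 reads per library, was not tested. The summed level of all 8 SMXL family genes was 144 and 124 TPM in wild type callus and 151 and 116 TPM in mutant callus. Within that sum SMXL2 went from 6.55% and 6.79% to 17.1% and 16.4%, and SMXL3 from 27.0% and 27.8% to 14.5% and 16.2%.

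Of the 3 genes listed for strigolactone and karrikin perception, 2 rose and the third had a positive log2 fold change. KAI2, the karrikin receptor, rose from 23.4 and 21.7 CPM to 67.6 and 60.5 CPM (log2 fold change 1.51, SE 0.10, adjusted p = 0.0135). D14, the strigolactone receptor, rose from 32.6 and 37.2 CPM to 48.6 and 55.6 CPM (log2 fold change 0.58, SE 0.11, adjusted p = 0.0483). MAX2, the F-box protein that serves both receptors, stood at 40.5 and 38.8 CPM in wild type callus and 61.2 and 46.2 CPM in mutant callus (adjusted p = 0.132). With DESeq2 the KAI2 call held in all 4 single omissions and the D14 call in 1.

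**Figure D3:**
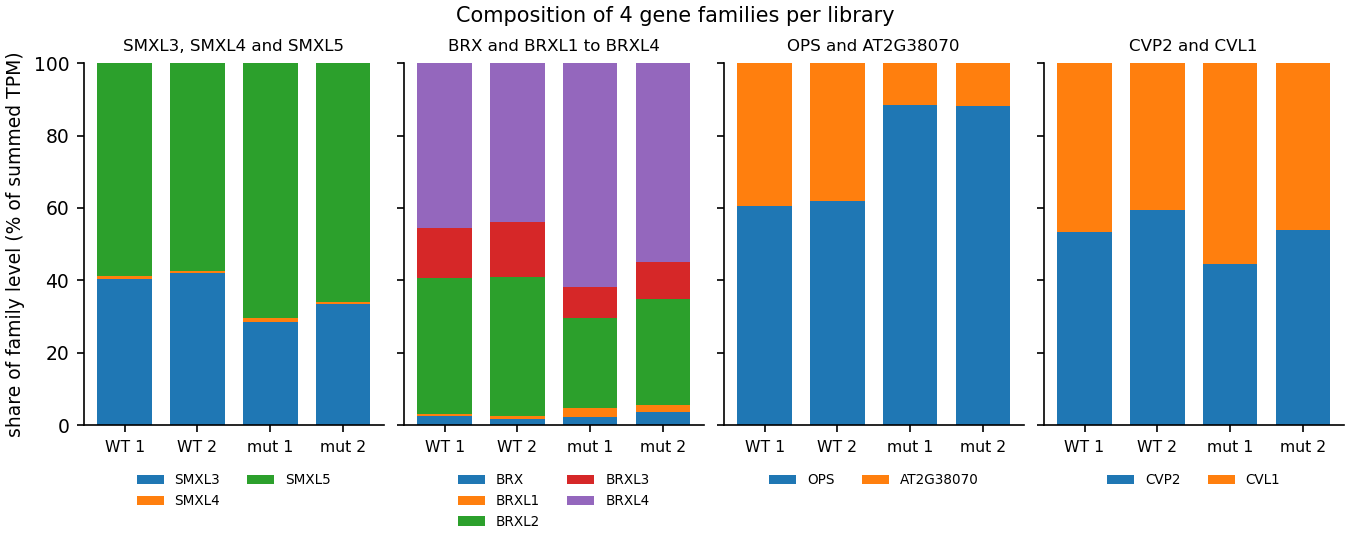
Share of summed TPM (percent, 0 to 100) taken by each gene of 4 families in each library (WT, wild type; mut, wox5-1 wox7-1; number, replicate). The OPS segment is larger in both mutant libraries (88.5% and 88.1%) than in both wild type libraries (60.6% and 61.8%), the SMXL3 segment is smaller, and BRX is a thin segment of its family in every library.

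APL specifies phloem identity, and its level was low in callus of both genotypes. APL stood at 1.22 and 1.19 CPM in wild type callus and at 0.906 and 1.03 CPM in mutant callus. The mutant libraries lay below the wild type libraries by less than the test's error (log2 fold change -0.31, SE 0.34, adjusted p = 0.560). AT3G12730, listed as its paralogue, stood at 0.954 and 0.442 CPM in wild type callus and 0.566 and 0.462 CPM in mutant callus (adjusted p = 0.625).

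NAC045 and NAC086 were at the edge of detection and did not enter the test. NAC045 had 2 and 2 reads in wild type libraries and 1 and 0 in mutant libraries, mutant below wild type but all below the floor of 3 reads, which is 0.0750 to 0.0999 CPM here. NAC086 had 8 and 2 reads in wild type callus and 4 and 1 in mutant callus. The ratio of its read totals, mutant over wild type and scaled to depth, was 0.440 with an exact 95% interval of 0.118 to 1.41, which covers counting error only. A fall in either gene could not be told from counting error at this depth. NAC045 shares 934 exon bases (33.5% of its exon length) with GSTF11 on the opposite strand, which had 0 reads in every library. NAC020, listed with them as a related NAC gene, had 54 to 67 reads per library and did not pass the threshold (adjusted p = 0.947). NAC028 and NAC057 were not tested. NAC028 had 7 and 8 reads in wild type callus and 4 and 5 in mutant callus (ratio 0.528, exact 95% interval 0.204 to 1.29). NAC057 had 8 and 3 reads in wild type callus and 2 and 1 in mutant callus (ratio 0.240, interval 0.0430 to 0.908). These intervals cover counting error only.

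The genes listed for sieve element maturation, on which these factors act, numbered 7, of which 6 were tested. CALS7, the callose synthase of sieve plates, fell from 15.2 and 13.9 CPM to 9.48 and 8.39 CPM (log2 fold change -0.70, SE 0.13, adjusted p = 0.0457), and the other 5 did not pass. With DESeq2 the CALS7 call was lost in each of the 4 single omissions. SEOR1, a filament protein of sieve elements, stood at 2.27 and 0.940 CPM in wild type callus and at 1.25 and 0.487 CPM in mutant callus, and SEOa at 1.81 and 0.332 CPM and at 0.962 and 0.359 CPM. For both, replicate 1 lay above replicate 2 in each genotype and the genotypes overlapped (adjusted p = 0.421 and 0.662). NEN4, a nuclease gene downstream of NAC045 and NAC086, had 3 and 1 reads in wild type callus and 2 and 0 in mutant callus. NEN1 and NEN2, relatives of NEN4, did not pass (adjusted p = 0.968 and 0.941). CHER1, a choline transporter-like protein of sieve plates, stood at 85.3 and 81.7 CPM in wild type callus and 73.7 and 63.1 CPM in mutant callus (adjusted p = 0.129).

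Of 8 genes listed for companion cells and phloem loading, 5 were tested and none passed the threshold. By DESeq2 also 0 passed, beside 20.2% of all genes. An unadjusted edgeR p below 0.05 was found for 0 genes of this list, beside 6247 of 18716 genes tested. The smallest p was that of FTIP1, which acts in export of the flowering signal FT, at 1.48 and 1.24 CPM in wild type callus and 0.651 and 0.770 CPM in mutant callus (log2 fold change -0.93, SE 0.36, adjusted p = 0.153). SUC2, the sucrose transporter that marks companion cells, stood at 5.20 and 4.73 CPM in wild type callus and 4.47 and 5.26 CPM in mutant callus (log2 fold change -0.03, SE 0.20). Of the 5 tested genes, 2 had positive log2 fold changes, PP2-A1 (0.31, SE 0.34) and NAKR1 (0.21, SE 0.45), and 3 negative ones. The third negative gene, AHA3, stood at 77.0 and 40.6 CPM in wild type callus and 67.0 and 41.7 CPM in mutant callus (log2 fold change -0.11). The sucrose exporters SWEET11, SWEET12 and SWEET13 were not tested. SWEET11 had 5 and 5 reads in wild type callus and 0 and 2 in mutant callus. The ratio of its read totals scaled to depth was 0.176 (exact interval 0.0187 to 0.825, counting error only). SWEET12 had 12 and 3 reads in wild type callus and 0 and 0 in mutant callus. Both genes were thus lower in both mutant libraries, at low read counts. SWEET13 had 0 reads in every library.

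PEAR1 acts in procambium next to protophloem and moves to neighbouring cells. PEAR1 stood at 0.658 and 0.525 CPM in wild type callus and at 0.708 and 0.564 CPM in mutant callus, overlapping between genotypes (log2 fold change 0.11, SE 0.42, adjusted p = 0.887). Its fold change turned sign without wild type replicate 2 (-0.05) and without mutant replicate 1 (-0.07). Of the 5 other Dof factors listed, TMO6 was the most abundant and fell, from 122.3 and 128.6 CPM to 98.5 and 93.7 CPM (log2 fold change -0.38, SE 0.07, adjusted p = 0.0448), a call that DESeq2 kept in 1 of 4 single omissions. AT5G02460, annotated as a Dof-type zinc finger protein, stood at 7.04 and 5.86 CPM in wild type callus and 9.82 and 6.23 CPM in mutant callus (adjusted p = 0.478). OBP2 stood at 11.3 and 10.2 CPM in wild type callus and 17.5 and 28.1 CPM in mutant callus (log2 fold change 1.09, SE 0.25, adjusted p = 0.0627). DOF6 and HCA2 did not pass (adjusted p = 0.742 and 0.503). PEAR1 made up 0.511% and 0.396% of the summed TPM of these 6 Dof genes in wild type callus and 0.635% and 0.525% in mutant callus, while TMO6 made up 81.3% to 90.5% of it.

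Of 12 genes listed for procambium and its cytokinin input, which induces PEAR1 in roots, 3 rose, 1 fell and 8 did not pass. AHP6, an inhibitor of cytokinin signalling that marks the protoxylem position, had 4 and 2 reads in wild type callus and 140 and 149 reads in mutant callus. The ratio of its read totals scaled to depth was 42.3 (exact 95% interval 19.2 to 116.4, counting error only), and the fitted log2 fold change 5.36 (SE 0.48, adjusted p = 0.0172). The AHP6 log2 fold change was 6.06 without wild type replicate 1, 4.85 without wild type replicate 2 and 3.47 with the values as deposited. T5L1, a partner of LHW in the complex that drives cytokinin synthesis, rose from 0.592 and 0.636 CPM to 2.80 and 2.08 CPM (log2 fold change 1.98, SE 0.35, adjusted p = 0.0393). PXY, the receptor kinase for the CLE41 and CLE44 peptide, rose from 14.7 and 13.2 CPM to 52.1 and 28.4 CPM (log2 fold change 1.53, SE 0.31, adjusted p = 0.0498), a call that RLE scaling (adjusted p = 0.0501) and upper-quartile scaling (adjusted p = 0.0544) did not keep.

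LOG3, an enzyme of cytokinin activation downstream of that complex, fell from 58.4 and 59.9 CPM to 42.1 and 35.2 CPM (log2 fold change -0.61, SE 0.11, adjusted p = 0.0418). With DESeq2 the AHP6 and PXY calls held in all 4 single omissions, the LOG3 call in 1 and the T5L1 call in 0. LHW stood at 256.9 and 237.8 CPM in wild type callus and 235.8 and 186.8 CPM in mutant callus (adjusted p = 0.310), and TMO5, the relative of T5L1, at 41.4 and 59.2 CPM and at 91.4 and 70.3 CPM (adjusted p = 0.114). WOX14, a homeobox gene of the vascular cambium, stood at 1.55 and 1.36 CPM in wild type callus and 2.94 and 4.49 CPM in mutant callus (adjusted p = 0.0679), and its relative WOX4 at 1.68 and 1.55 CPM and at 3.54 and 2.23 CPM (adjusted p = 0.175).

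The CLE peptide pathway, which restrains protophloem differentiation, was listed with 14 genes, of which 13 were tested, 0 rose and 4 fell. At an unadjusted edgeR p below 0.05, 2 were higher and 6 lower in mutant callus, and DESeq2 called 2 raised and 5 lowered. Over all genes tested, edgeR called 6.06% raised and 5.81% lowered, and 6247 of 18716 had an unadjusted p below 0.05. DESeq2 called 20.2% of all genes it tested. BAM1, a receptor kinase related to BAM3, fell from 580.7 and 584.3 CPM to 323.7 and 294.3 CPM (log2 fold change -0.91, SE 0.09, adjusted p = 0.0181). BAM2 fell from 45.9 and 45.7 CPM to 33.8 and 33.7 CPM (log2 fold change -0.44, SE 0.07, adjusted p = 0.0364). AT5G45780 and AT2G23950, annotated as leucine-rich repeat protein kinases, fell as well, from 85.6 and 77.7 CPM to 53.6 and 55.6 CPM (log2 fold change -0.58, SE 0.08, adjusted p = 0.0282) and from 45.6 and 46.4 CPM to 31.1 and 27.2 CPM (log2 fold change -0.66, SE 0.10, adjusted p = 0.0312). NIK3 and SARK, listed beside these kinases, had positive log2 fold changes and did not pass the threshold. NIK3 stood at 40.9 and 37.9 CPM in wild type callus and 70.9 and 49.8 CPM in mutant callus (log2 fold change 0.62, adjusted p = 0.101). SARK had a log2 fold change of 0.15 (adjusted p = 0.615). With DESeq2 the BAM1 call held in all 4 single omissions, those of AT5G45780 and AT2G23950 in 3 and 2, and that of BAM2 in 0.

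BAM3, the receptor of the CLE45 peptide in protophloem, stood at 47.9 and 46.7 CPM in wild type callus and at 34.8 and 26.8 CPM in mutant callus. Both mutant libraries lay below the wild type libraries, and the test did not pass the threshold (log2 fold change -0.62, SE 0.15, adjusted p = 0.0644). MAKR5, which amplifies the CLE45 signal, stood at 27.1 and 28.8 CPM in wild type callus and 38.8 and 62.9 CPM in mutant callus (log2 fold change 0.86, SE 0.25, adjusted p = 0.0910). CLE45 had 0 reads in every library, a count that allows up to 0.0750 to 0.0999 CPM. It shares 94.8% of its exon bases with AT1G69587, a lncRNA on the opposite strand with 257 to 339 reads per library, and no source used here gives the strand setting of the counting. CLE25, another peptide gene, stood at 6.02 and 6.89 CPM in wild type callus and 6.88 and 5.23 CPM in mutant callus (adjusted p = 0.802), and CLE26 had 8 to 13 reads per library (adjusted p = 0.680). The co-receptor pair CRN and CLV2 and the receptor kinase RPK2 did not pass (adjusted p = 0.459, 0.182 and 0.142).

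**Figure D4:**
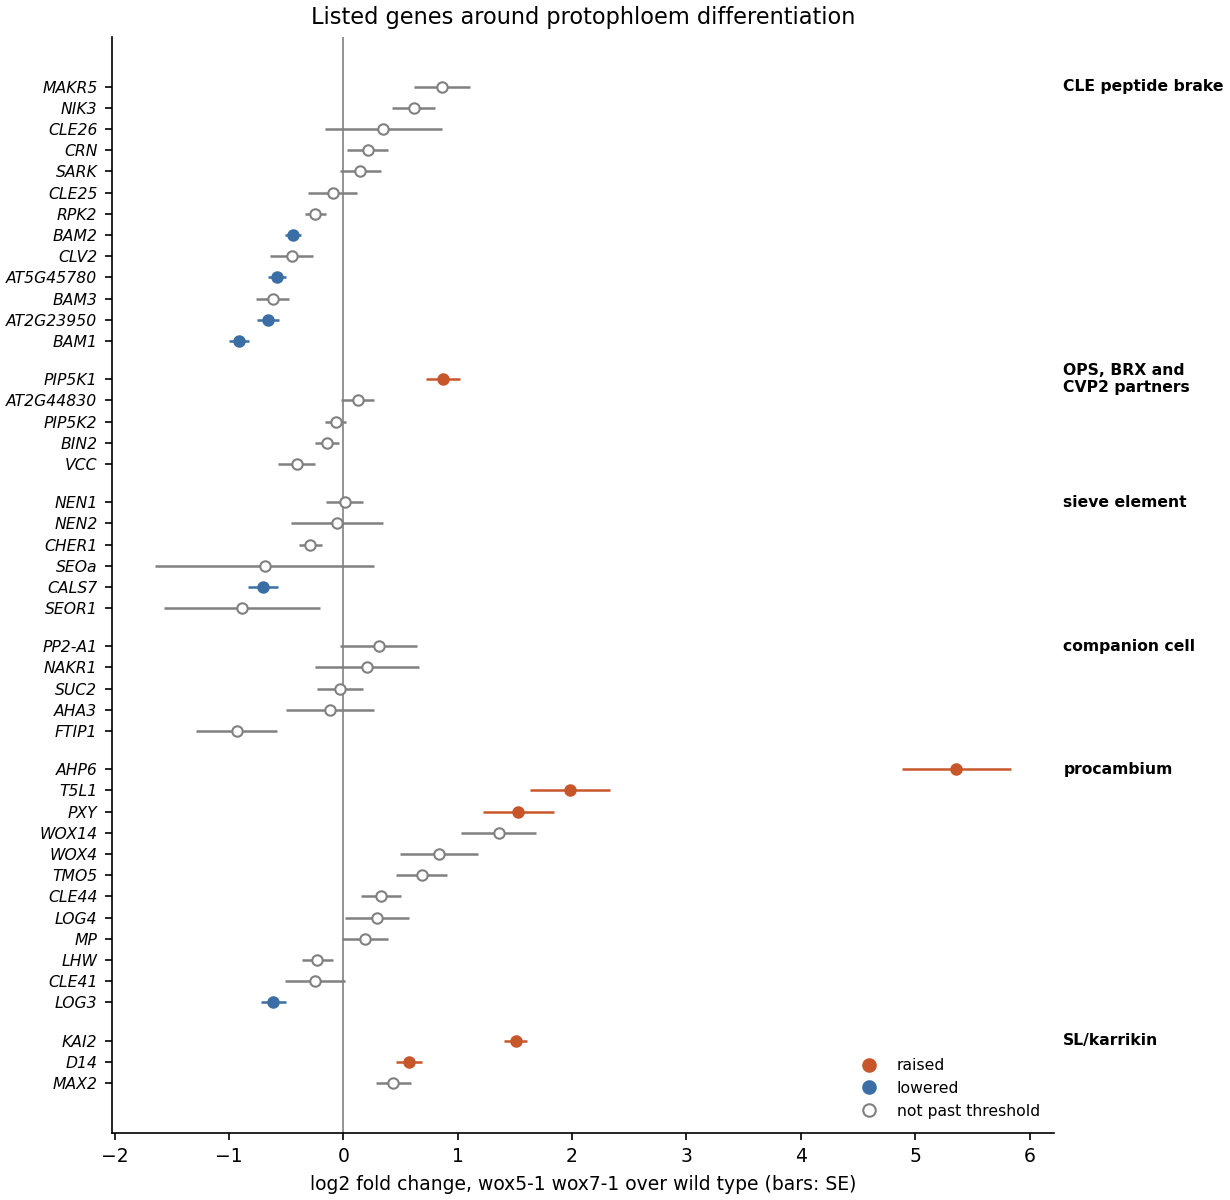
Log2 fold change (wox5-1 wox7-1 over wild type) of the tested genes of 6 lists around protophloem differentiation, with bars of 1 SE, filled where past the threshold (orange raised, blue lowered). Filled points lie below 0 in the CLE peptide and sieve element lists, above 0 for PIP5K1 and for KAI2 and D14, and on both sides in the procambium list, where AHP6 (5.36) lies farthest out.

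On the TPM scale, the members fell into an upper and a lower range. In the wild type the order of mean levels was SMXL5 (51.9 TPM), SMXL3 (36.7), OPS (21.0), CVP2 (14.3), BRX (2.88), APL (1.33), PEAR1 (0.694), SMXL4 (0.570), NAC086 (0.154) and NAC045 (0.0383). Neighbours in this order had separate ranges over the 2 libraries except PEAR1 and SMXL4. The nearest NAC086 and NAC045 values were 2 reads each, below the floor of 3 reads, and were set apart by exon length (1833 and 2791 bases). Their order is therefore not resolved. Among 22206 genes with a read in wild type callus and an exon length, SMXL5 lay above 80.8%, SMXL3 above 73.0%, OPS above 57.8%, CVP2 above 48.7%, BRX above 28.8%, and the other 5 above 3.74% to 23.5%.

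In the mutant OPS stood first (58.5 TPM), its range overlapping that of SMXL5 (45.5), followed by SMXL3 (20.3), CVP2 (9.85), BRX (3.94), APL (1.04), PEAR1 (0.733), SMXL4 (0.578), NAC086 (0.0668) and NAC045 (0.00903). From SMXL5 downward, again only PEAR1 and SMXL4 overlapped as neighbours, while the nearest NAC086 and NAC045 values were 1 read each and leave their order unresolved. The ratio of OPS to SMXL3 in TPM was 0.550 and 0.598 in wild type libraries and 3.16 and 2.57 in mutant libraries, with OPS the lower gene of the pair in the former and the higher one in the latter. With OPS higher and SMXL3 lower in both mutant libraries, a higher ratio there was fixed and is no separate result. The summed level of all 10 members was 137 and 122 TPM in wild type callus and 161 and 120 TPM in mutant callus, overlapping between genotypes.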

How the data were processed

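The authors deposited one table of whole-number read counts per gene in 4 libraries, with every value at least 10. Among low genes, replicates varied 0.520 (wild type) and 0.539 (mutant) times as much as Poisson counts would as deposited, and 2.14 and 2.28 times after 10 was subtracted. In that comparison the subtracted values were scaled to library depth and the deposited ones were not. The subtraction of 10 from every value was set before the variances were compared, given that every value was at least 10. That a constant had been added is an inference from the values. Tools named in the submitters' processing notes are STAR 2.7.2b, Trim Galore 0.5.0 and DESeq2, with TAIR10 as build. No source used here gives the counting tool or its strand setting.

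Counts were fitted over all genes in R 4.3.3 with edgeR 4.0.16 (filterByExpr, TMM, glmQLFit and glmQLFTest, no covariates, two-sided, Benjamini-Hochberg adjustment over 18716 genes, threshold 0.05). The biological coefficient of variation was 0.217. The SE is the size of the log2 fold change over the square root of F. TPM were computed from the same counts and the merged exon lengths of the TAIR10.1 RefSeq annotation, which matched 32548 loci. Its genome gave the promoter stretches. The fit was repeated with RLE scaling, upper-quartile scaling, no filter, a filter of CPM at least 1 in 2 libraries, DESeq2 1.42.0, voom in limma 3.58.1, the replicate number as a block, the values as deposited, and each library left out. DESeq2 with each library left out was added after seeing the data. Where an arm was left with 1 library, that library was assumed to vary like the others. Chi-square per degree of freedom between replicates was 20.04 for the wild type and 48.6 for the mutant, above sampling noise.

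The members and lists were chosen with earlier results of these data known. Named genes are all 10 members, up to 4 genes past the threshold per other list by smallest p (or the 1 with the smallest p), and listed genes described as a paralogue or by role. Other listed genes are named where they complete the account of a list. No genes of like pattern were named, because 4 libraries in 2 genotypes cannot rank likeness. Intervals and floors cover counting error only: without molecular identifiers, reads are not independent molecules.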

Additional observations from a re-analysis of the deposited data

How the results depend on the processing

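Against 2223 genes called, RLE scaling gave 2148, upper-quartile scaling 2090, no filter 2615, the CPM filter 2304 and limma-voom 1698, while DESeq2 gave 3918 and the values as deposited 3416 (fitted with another dispersion trend). The 4 single omissions gave 0 to 2493 by edgeR (1198 without mutant replicate 2) and 1212 to 3033 by DESeq2 (1320 without wild type replicate 1 and 1212 without wild type replicate 2). Members called were 2 in all fits of the 4 libraries except DESeq2 and the replicate block (3 each, with CVP2), and 0 to 2 over the edgeR omissions. Genes called in the other lists around protophloem numbered 17, 26 by DESeq2, 0 to 16 over the edgeR omissions (11 without mutant replicate 2) and 6 to 18 over the DESeq2 omissions (6 and 8 without wild type replicate 1 and 2). With the replicate number as a block, 4750 genes, 3 members (CVP2 at adjusted p = 0.0199) and 29 listed genes were called. The listed genes tested numbered 61 by edgeR and 63 by DESeq2. Over all genes, edgeR called 11.9% and DESeq2 20.2%. Deviations of same-numbered libraries correlated at 0.556 over the genes tested, with only 2 pairs of libraries. The labels give the number no meaning. Whether same-numbered libraries share a culture or batch cannot be told from them and was not tested. Signs turned only for members that were not called: SMXL4 with limma-voom (-0.014), with the block (-0.0027) and over the single omissions (-0.55 to 0.46 by edgeR; by DESeq2 -0.25 without wild type replicate 2 and -0.55 without mutant replicate 1), SMXL5 without mutant replicate 2 (0.055 by edgeR within -0.42 to 0.055, 0.061 by DESeq2), and PEAR1 without wild type replicate 2 (-0.053 by edgeR, -0.046 by DESeq2) and without mutant replicate 1 (-0.067 by edgeR within -0.067 to 0.28, -0.061 by DESeq2). With all 4 libraries, BRXL2, BRXL3, BAM2, TMO6 and PLT2 were lost with the values as deposited, and BRXL1, T5L1, PXY, D14, TMO6 and PLT2 with limma-voom. The cause of these changes was not tested. NAC045, NAC086 and NEN4 had too few reads for a fall to be detectable at this depth.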
